A study of Mus musculus with 3 samples.

Results

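The genes described here encode the subunits of the proteasome and the factors that assemble it. They are defined by name, as every gene whose symbol begins with Psma, Psmb, Psmc, Psmd, Psme, Psmf or Psmg and a number, with pseudogenes left out. The CBTi-seq table of 20716 gene symbols held 48 of them, and the 3' tables of 55295 symbols held 50, which are all members found in either table. Of the 50, 8 form the alpha ring, 7 the constitutive beta ring, 4 are inducible or tissue-specific beta subunits, 6 are ATPases of the cap base, 11 belong to the lid and the rest of the cap, 5 are activators or inhibitors, and 7 are assembly factors. The last 2 of the 50, Psmc3ip and Psme2b, match the name rule without belonging to a class. Psmc3ip is a meiotic recombination factor and no proteasome subunit, and Psme2b is a relative of Psme2 whose annotated gene is 1 exon. Both are in the counts over all members and in no class. The annotation places the members on 16 chromosomes, and all 50 are protein-coding.

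The cells were L929, a fibroblast line of the mouse, either with a knockdown of Rrm2 ("knock") or as controls. The series asked how this difference is read by CBTi-seq and by a second method directed at the 3' end of RNAs. The CBTi-seq sample is 1 table with 10 knock and 10 control columns. The 3' method gave 1 sample labelled knock and 1 labelled control, each a table of 8 columns. Per the labels' protocols, single cells were picked with a capillary, so a column stands for a cell or well of 1 sample and is no replicate. How the knockdown was made, and whether other changes are shared by both groups, was not stated in the sources used here.

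The proteasome breaks down proteins that carry a ubiquitin chain. Its barrel-shaped core has an alpha ring at each end, which gates entry, and inner beta rings that hold the proteolytic sites. A cap on the core binds the ubiquitin chain and removes it, and a ring of ATPases in the cap base unfolds the protein and feeds it into the barrel. Interferon induces beta subunits that replace the constitutive catalytic ones, which gives the immunoproteasome and changes the peptides shown to T cells. Dedicated chaperones guide the assembly of the alpha ring and of the ATPase ring.

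The columns held 153051 to 735871 counts in the CBTi-seq knock group and 41570 to 846819 in its control group. The 3' columns held 814960 to 1973137 counts in the library labelled knock and 399393 to 2496457 in the one labelled control. With 1 sample per group there is no replicate, so no test was made. Each group's columns were summed and scaled to the group's total (CPM, in its usual sense). The 95% intervals are exact for the counts, cover counting error only and leave out the spread between columns. Rrm2 was at 350.1 CPM in the CBTi-seq knock columns and 480.9 CPM in the control columns, but at 148.1 CPM in the 3' library labelled knock and 39.1 CPM in the one labelled control. Rrm2 therefore goes against the 3' labels, and every 3' direction below is given by label only. The 7 fibroblast markers summed to 1852 CPM in the CBTi-seq knock group and 1877 CPM in its control group, with Thy1 not listed there. In 3' they summed to 1585 to 1782 CPM in the columns labelled knock and 706 to 857 CPM in those labelled control. The immune markers summed to 20.0 CPM in the CBTi-seq knock group and 43.5 CPM in its control group (columns at 2.66 to 34.6 CPM in knock and 0 to 162.9 CPM in control). In 3' they summed to 149.96 CPM in the library labelled knock and 77.8 CPM in the one labelled control. All of these were counts of Cd68, while Ptprc and Cd3e were at 0 in both methods. Epithelial markers were under 2 CPM in both CBTi-seq groups, and at 118.2 CPM in the 3' library labelled knock and 194.8 CPM in the one labelled control. Endothelial markers had no count in CBTi-seq, and were at 21.0 CPM in the 3' library labelled knock and 19.1 CPM in the one labelled control. The part of these markers in the ratios was not tested.

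Promoter sequences are shown for 5 members on which the results turn. Psmb5 and Psmb6 encode constitutive catalytic subunits, and Psme3 encodes the activator with the highest 3' ratio. Psmd9 and Psmg1 encode assembly factors with high ratios in CBTi-seq. In 3', Psmg1 had the lowest ratio of the members at 20 CPM or more. Each sequence runs 5′ to 3′ along the gene, from 250 bases before the annotated start to 50 bases after it, from RefSeq on GRCm38.p6. Capitals mark an antioxidant response element, TGACNNNGC on either strand, in Psmb5, Psmb6 and Psmd9. This element is the site known for the transcription factor NFE2L1, which induces proteasome genes when proteasome activity is low. In Psme3 the capitals mark a CCAAT box on the reverse strand. The Psmg1 window holds neither motif. The windows lie at chr14:54617946-54618245 on the minus strand for Psmb5, chr11:70525107-70525406 on the plus strand for Psmb6, chr5:123227940-123228239 on the plus strand for Psmd9, chr11:101315963-101316262 on the plus strand for Psme3 and chr16:95990911-95991210 on the minus strand for Psmg1.
Psmb5: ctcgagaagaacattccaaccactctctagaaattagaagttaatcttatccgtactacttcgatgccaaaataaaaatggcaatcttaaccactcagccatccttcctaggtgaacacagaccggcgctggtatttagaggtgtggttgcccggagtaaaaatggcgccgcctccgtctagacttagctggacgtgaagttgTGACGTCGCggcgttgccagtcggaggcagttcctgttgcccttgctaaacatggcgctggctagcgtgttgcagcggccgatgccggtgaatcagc
Psmb6: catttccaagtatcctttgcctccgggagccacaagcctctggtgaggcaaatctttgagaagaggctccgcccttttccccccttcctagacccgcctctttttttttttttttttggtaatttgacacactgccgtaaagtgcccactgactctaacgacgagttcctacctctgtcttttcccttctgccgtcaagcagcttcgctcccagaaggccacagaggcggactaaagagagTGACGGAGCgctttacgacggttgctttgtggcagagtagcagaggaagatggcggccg
Psmd9: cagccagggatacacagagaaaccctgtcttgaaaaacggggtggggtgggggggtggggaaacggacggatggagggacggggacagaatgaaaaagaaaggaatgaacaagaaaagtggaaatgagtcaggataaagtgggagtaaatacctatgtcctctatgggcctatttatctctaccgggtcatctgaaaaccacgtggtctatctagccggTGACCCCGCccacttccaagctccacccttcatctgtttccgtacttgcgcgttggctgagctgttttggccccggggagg
Psme3: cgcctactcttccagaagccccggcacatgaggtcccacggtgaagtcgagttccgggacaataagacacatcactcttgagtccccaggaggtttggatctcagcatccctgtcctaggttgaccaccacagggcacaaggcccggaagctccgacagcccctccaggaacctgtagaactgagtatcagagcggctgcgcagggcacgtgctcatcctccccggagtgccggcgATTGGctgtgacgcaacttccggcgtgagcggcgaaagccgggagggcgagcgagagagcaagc
Psmg1: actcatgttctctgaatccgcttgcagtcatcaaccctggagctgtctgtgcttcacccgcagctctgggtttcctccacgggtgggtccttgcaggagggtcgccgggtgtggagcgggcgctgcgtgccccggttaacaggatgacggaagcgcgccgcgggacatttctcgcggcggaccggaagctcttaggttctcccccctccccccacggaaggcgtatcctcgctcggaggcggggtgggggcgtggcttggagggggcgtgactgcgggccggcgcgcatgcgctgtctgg

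Of the 50 members, 42 matched the promoter table, with 45 promoters. The antioxidant response element was found in 6 of the 45 (13.3%), against 12.4% of all 32851 promoters of the same length. It lay 47 bases before the start in Psmb5, 9 in Psmb6 and 31 in Psmd9, and the others were Psmc6, Psmd12 and Psme4. The CCAAT box was found in 33.3% of the members' promoters and in 37.4% of all promoters. The members thus held either motif about as often as any promoter. A match describes the letters of the window and no binding.

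In CBTi-seq, proteasome genes stood higher in the knock columns as a group, by a modest amount. Of the 46 members at a mean of 20 CPM or more, 40 were higher in the knock group (87%, against 44.7% of the 8391 genes at that level) and 6 lower (13%, against 55.3%). Of the members, 17 were at least 1.2-fold higher (37%, against 16.9% of all genes) and 3 at least 1.2-fold lower (6.52%, against 28.3%). None was 2-fold apart in either direction, a distance that 0.536% of all genes reached upwards and 2.42% downwards. The median log2 ratio of knock over control was 0.21 over the members and -0.05 over all genes. Without Psmc3ip, and with Psme2b under 20 CPM, 39 of 45 were higher, 16 of them at least 1.2-fold, at a median log2 ratio of 0.19. Together the 48 members made up 11156 CPM in the knock group and 9623 CPM in the control group, 1.16-fold higher (1.14 to 1.18). Their sum ran over the columns at 10323 to 12074 CPM in knock and 7258 to 11318 CPM in control, so that the groups overlapped, and 5 of the 10 knock columns lay above the highest control column. Without control column 3, 1 member in place of 3 was at least 1.2-fold lower. Factors from trimmed means (TMM) gave 24 members higher and 1 lower at that size, so that 96% of such calls were higher in place of 85%. These factors moved the median log2 ratio of all genes upwards too, by 0.08. The share of all genes called under them is not given here. After the columns were thinned to the same 50000 counts, with 1 control column left out, 35 of the 46 were higher. At least 1.2-fold higher were then 18, and at least 1.2-fold lower 4. The share of all genes after thinning is not given, here or below.

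**Figure D1:**
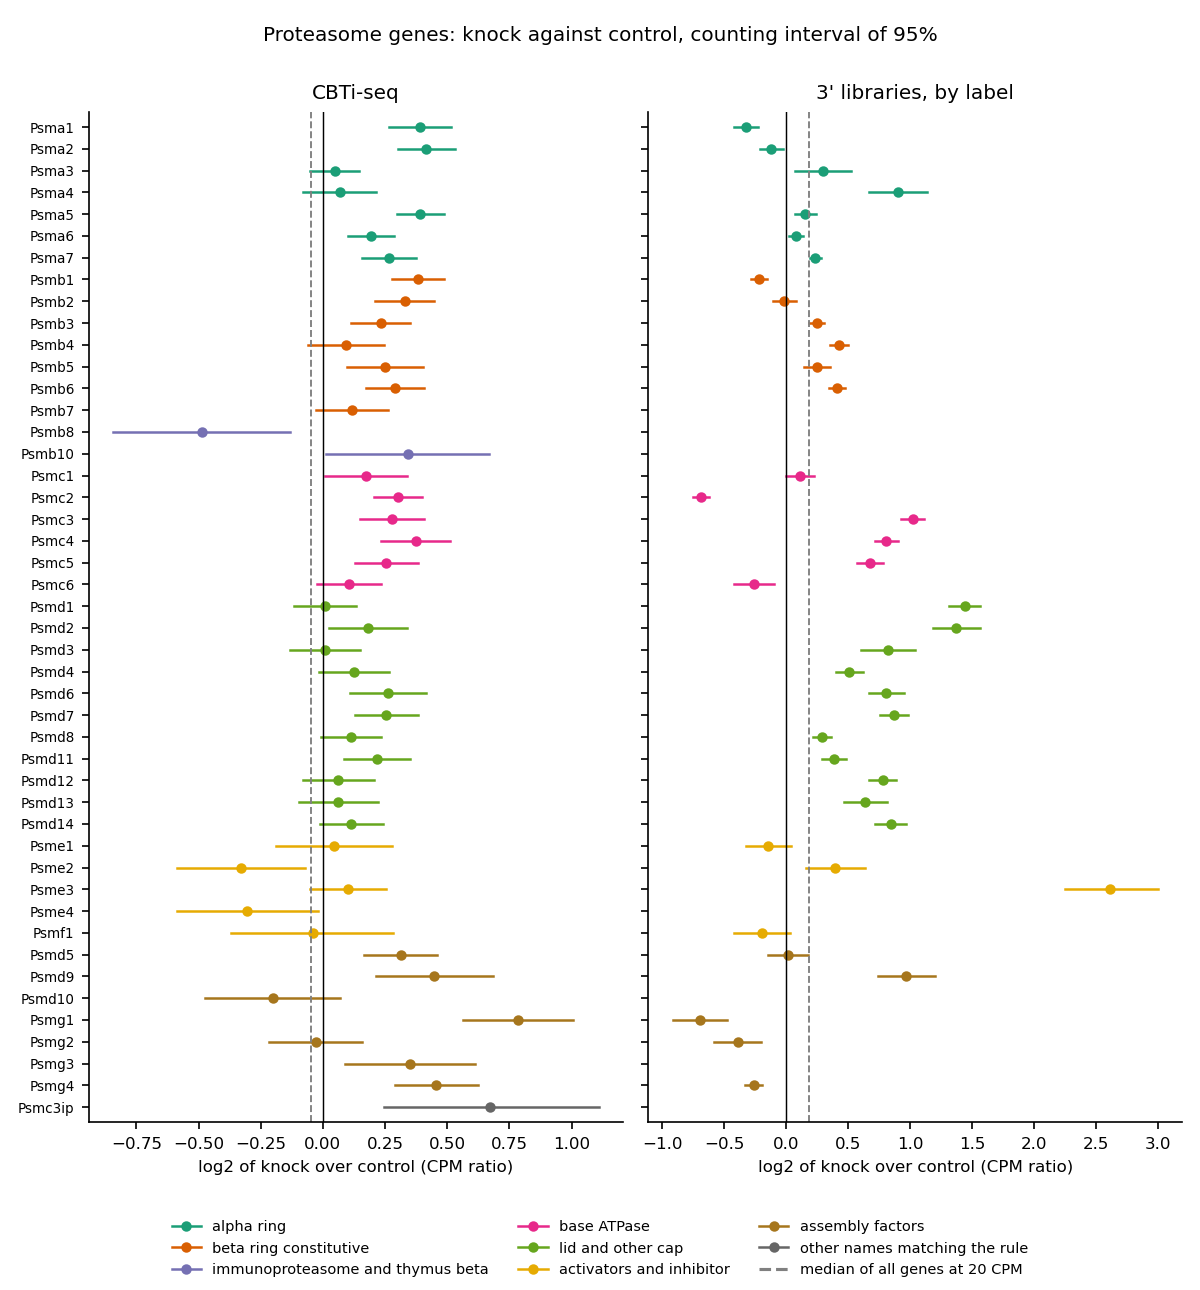
Log2 ratio of knock over control for every member at 20 CPM or more, in CBTi-seq (left) and in the 3' libraries by label (right), coloured by class. Points are ratios of summed CPM, bars are 95% intervals for counting error only, and the dashed line is the median of all genes (-0.05 and 0.18). In CBTi-seq 40 of 46 points lie right of 0, while the 3' points spread from -0.70 to 2.61. All 11 genes of the lid and the rest of the cap lie on the right in 3'.

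All 7 alpha ring genes of the CBTi-seq table were higher in the knock group, at a median log2 ratio of 0.27, and 4 were at least 1.2-fold higher. These genes encode the outer ring whose tails close the entry of the barrel. Psma2 had 333.0, 393.1 and 453.4 CPM as its lowest, median and highest knock column, against 144.3, 274.3 and 396.4 CPM in control. All 10 knock columns lay above the control median and 5 above every control column, and its log2 ratio was 0.42 (0.30 to 0.53). The control low of Psma2 came from control column 1, the shallowest, with 41570 counts. So did the control lows given below for Psmb1, Psmb5, Psmb7, Psmb8, Psmb10, Psmd14, Psme4 and Psmg1. Psma1 and Psma5 each had a log2 ratio of 0.39, and Psma7 of 0.27, a call that ended on leaving out any 1 of 10 columns. Psma3 (0.05) and Psma4 (0.07) had intervals that included 0. Per kb of the longest annotated transcript, Psma6 had the highest level of any member, 515.8 CPM per kb in knock and 451.0 CPM per kb in control. Psma5 followed with 466.5 CPM per kb in knock and 355.7 CPM per kb in control. Psma2 had the lowest such level of the ring, 132.8 CPM per kb in knock and 99.5 CPM per kb in control. The summed level of the ring was 2929 CPM in the knock group and 2453 CPM in the control group, 1.19-fold higher (1.16 to 1.23), and 8 of 10 knock columns exceeded the highest control column. Psma8, which replaces an alpha subunit in the testis, has no row in this table.

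All 7 constitutive beta ring genes were also higher in the knock group, at a median log2 ratio of 0.25, and 3 of them were at least 1.2-fold higher. Psmb1, a structural subunit, stood at 411.8, 483.9 and 600.8 CPM in the lowest, median and highest knock column and at 96.2, 370.3 and 444.9 CPM in control. Its log2 ratio was 0.38 (0.28 to 0.49), the highest of the ring, and 7 of the 10 knock columns lay above every control column. Psmb2, also structural, followed with 0.33. Of the 3 catalytic members, Psmb6, with the caspase-like site, had 277.5, 365.0 and 471.1 CPM over the knock columns and 202.7, 309.9 and 404.7 CPM over the control columns. Psmb5, with the chymotrypsin-like site, had 176.6, 209.7 and 285.3 CPM in knock and 120.3, 163.5 and 225.9 CPM in control. Psmb7, with the trypsin-like site, had 194.4, 219.9 and 276.6 CPM in knock and 96.2, 201.5 and 265.8 CPM in control. Their columns overlapped broadly, and their log2 ratios were 0.29 for Psmb6, 0.25 for Psmb5 and 0.12 for Psmb7, the last with an interval from -0.03 to 0.26. The 1.2-fold call of Psmb6 ended on leaving out any 1 of 5 columns. The ring summed to 2158 CPM in knock and 1796 CPM in control, 1.20-fold higher (1.16 to 1.24).

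The inducible beta subunits did not move as one. Psmb8, which replaces Psmb5 in the immunoproteasome, was the lowest of the 46 members by ratio. Its columns held 13.0, 29.3 and 61.2 CPM as lowest, median and highest in knock, against 0, 44.9 and 75.7 CPM in control, and the log2 ratio was -0.48 (-0.84 to -0.13). The 0 came from control column 1, the shallowest of all. Psmb9, which replaces Psmb6, was below 20 CPM, with 39 counts in knock and 84 in control, 11.1 CPM in knock against 21.8 CPM in control, and a log2 ratio of -0.97 (-1.55 to -0.40). Knock columns reached at most 20.0 CPM of Psmb9, while 4 control columns held more than that. Psmb9 overlaps Tap1 on the opposite strand, and whether the counting used strand was not stated in the sources used here. Psmb10, which replaces Psmb7, ran the other way, with 26.6, 47.3 and 67.9 CPM over knock columns and 0, 40.5 and 58.9 CPM over control columns. Its log2 ratio was 0.34 (0.01 to 0.67), and this call ended without knock column 10 or without control column 3 or 4.

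Count ratios within the same cells set each inducible subunit against its constitutive partner and do not depend on the scaling. Psmb8 counts were 15.2% of Psmb5 counts in the knock group (12.4 to 18.6) and 25.3% in the control group (21.3 to 30.0). Psmb9 counts were 3.08% of Psmb6 counts in knock (2.18 to 4.23) and 7.37% in control (5.83 to 9.20). Psmb10 counts were 21.4% of Psmb7 counts in knock (18.1 to 25.4) and 18.4% in control (15.3 to 21.9), with intervals that overlapped. All 3 inducible genes together made 11.5% of the constitutive catalytic counts in knock (10.2 to 12.9) and 15.4% in control (13.8 to 17.1). By column these shares ran at 6.67% to 14.9% in knock and 0% to 19.1% in control, so that single columns did not separate the groups.

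**Figure D2:**
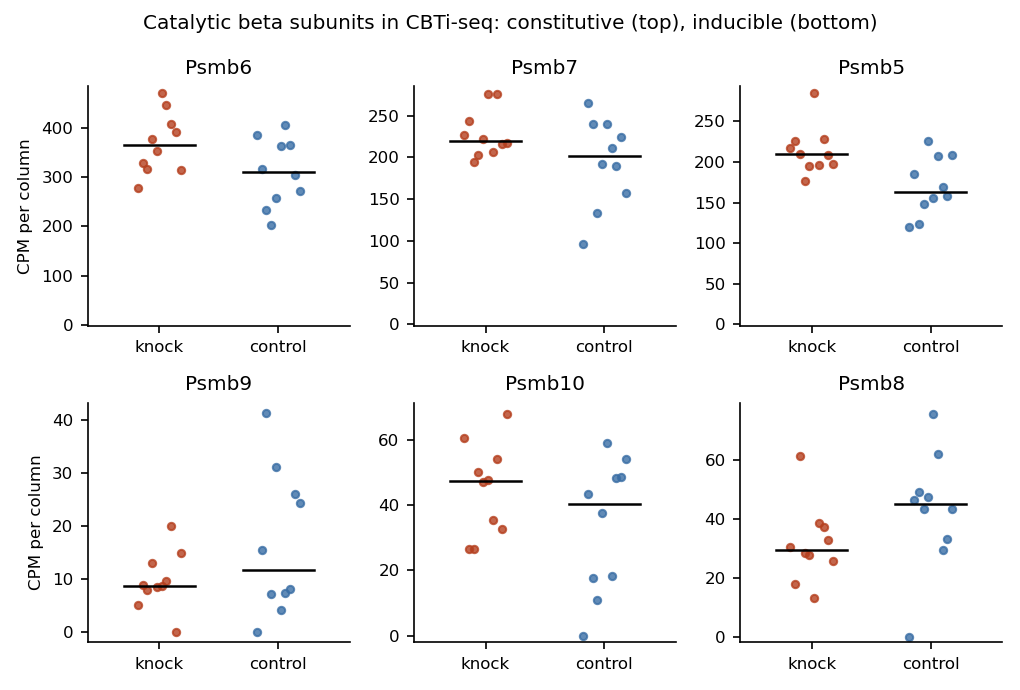
CPM of the 3 constitutive catalytic beta subunits (top) and of the inducible subunits that replace them (bottom, each under its partner) in all 10 knock and 10 control columns of CBTi-seq. Points are columns and lines are medians. The constitutive medians stand higher in knock, the median of Psmb8 is 29.3 CPM in knock against 44.9 CPM in control, and the points of both groups overlap in every panel.

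All 6 ATPase genes of the cap base were higher in the knock group, at a median log2 ratio of 0.27, and 3 were at least 1.2-fold higher. Psmc2 had the highest level per group of these genes in CPM, with 448.4, 547.8 and 635.3 CPM over the knock columns and 271.5, 422.2 and 547.0 CPM over the control columns. Of the knock columns, 5 lay above every control column, and the log2 ratio was 0.30 (0.20 to 0.40). Psmc4 had the highest ratio of the base, 0.37 (0.23 to 0.51), and Psmc6 the lowest, 0.11 (-0.02 to 0.23). The call of Psmc3 ended on leaving out any 1 of 5 columns and that of Psmc2 any 1 of 2, while that of Psmc4 held. Psmc5 had a log2 ratio of 0.26, but 745.7 CPM in control column 1, so that with each column weighted the same its ratio was 0.00. The base summed to 1841 CPM in knock and 1542 CPM in control, 1.19-fold higher (1.15 to 1.24).

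The 11 genes of the lid and the rest of the cap were higher in knock too, but by less, at a median log2 ratio of 0.11, and none was at least 1.2-fold higher. They include the ubiquitin receptor Psmd4, the large scaffolds Psmd1 and Psmd2, and Psmd14, the enzyme that cuts off the ubiquitin chain. Psmd14 had 233.4, 267.7 and 348.8 CPM in the lowest, median and highest knock column, against 72.2, 267.2 and 342.8 CPM in control. Its medians were nearly equal, and the log2 ratio of the summed counts was 0.11 (-0.01 to 0.24). Psmd6 (0.26) and Psmd7 (0.26) had the highest ratios and Psmd3 (0.01) and Psmd1 (0.01) the lowest. In sums below, the lid is short for all 11 genes, the rest of the cap included. It summed to 2747 CPM in knock and 2514 CPM in control, 1.09-fold higher (1.06 to 1.12). After thinning, 5 of the 11 were higher and 6 lower, and the log2 ratio of the sum was 0.04. Counts of the cap were 90.2% of those of the core in the knock group (88.3 to 92.1) and 95.5% in the control group (93.4 to 97.6), with columns at 73.4% to 100.4% in knock and 82.2% to 112.9% in control.

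Of the activators and the inhibitor, 2 of 5 were higher in the knock group, and the median log2 ratio was -0.04. Psme2, a subunit of the interferon-induced activator, had 34.2, 67.0 and 90.8 CPM over knock columns and 37.1, 64.5 and 108.2 CPM over control columns. The column medians were alike, and the log2 ratio of the sums was -0.33 (-0.59 to -0.07). Its near copy Psme2b, at 11.4 CPM in knock and 13.7 CPM in control, could share reads with it. Psme4, an ATP-independent activator, had 26.1, 34.9 and 91.2 CPM in knock and 24.1, 56.9 and 96.4 CPM in control, with a log2 ratio of -0.30 (-0.59 to -0.02). The calls of Psme2 and Psme4 ended without control column 3, among other columns. Psme1, the partner of Psme2, had a log2 ratio of 0.04, Psme3, the nuclear activator, of 0.10, and the inhibitor Psmf1 of -0.04, with intervals that included 0. The sign of Psmf1 turned with TMM and median-of-ratios factors.

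Assembly factors had the highest median of the classes, 0.35, with 5 of 7 at least 1.2-fold higher in the knock group. Psmg1, which forms a chaperone pair with Psmg2 on the alpha ring, had the highest ratio of all members. It stood at 65.6, 121.2 and 157.0 CPM in the lowest, median and highest knock column, against 24.1, 77.0 and 84.6 CPM in control. Of the knock columns, 8 lay above every control column, and the log2 ratio was 0.78 (0.56 to 1.004), with 0.72 to 0.82 when any column was left out. Psmg2 was at 127.2 CPM in knock and 129.7 CPM in control, a log2 ratio of -0.03 whose sign turned with TMM and median-of-ratios factors and which ran at -0.12 to 0.26 when any column was left out. The second chaperone pair had ratios of 0.46 (0.29 to 0.62) for Psmg4 and 0.35 (0.09 to 0.61) for Psmg3, whose call ended without knock column 3. Psmg4 was at 505.2 CPM in control column 1 and at 88.5 to 189.6 CPM in the other control columns, and its ratio was 0.50 without column 1 and 0.15 with equal weights. Among the chaperones of the ATPase ring, Psmd9 had 0.45 (0.21 to 0.68) and Psmd5 0.31 (0.17 to 0.46), while Psmd10 had -0.20 (-0.48 to 0.07). The call of Psmd5 ended on leaving out any 1 of 3 columns. The class summed to 906.2 CPM in knock and 725.8 CPM in control, 1.25-fold higher (1.19 to 1.31). Psmc3ip, which is in no class, was at 32.2 CPM in knock and 20.2 CPM in control, a log2 ratio of 0.67 (0.25 to 1.11).

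In the 3' libraries, the members followed the tilt of all genes towards the library labelled knock, and differed by class. Of the 39 members at 20 CPM or more, 28 were higher in the library labelled knock (71.8%, against 58.8% of the 5701 genes at that level) and 11 lower (28.2%, against 41.2%). At least 1.2-fold higher were 21 (53.8%, against 45.7%) and at least 1.2-fold lower 5 (12.8%, against 29%). At least 2-fold higher were 4 (10.3%, against 17.3%) and 2-fold lower 0 (against 5.68%). The median log2 ratio was 0.30 over the members and 0.18 over all genes. TMM factors, median-of-ratios factors and totals that leave out ribosomal protein and mitochondrial genes moved the median of all genes by -0.16, -0.17 and -0.13, and the members with it. With TMM factors the calls at 1.2-fold split into 16 higher and 10 lower, so that 61.5% were higher in place of 80.8%. Here and below, the share of all genes called under another scaling is not given, so these counts have no background beside them. Ribosomal protein genes took a median of 16.1% of the counts per column in the library labelled knock and 24.1% in the one labelled control, and mitochondrial genes 1.70% in the library labelled knock and 0.968% in the one labelled control. The part of these shares in the ratios was not tested.

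The lid and the rest of the cap stood out among the 3' classes. All 11 genes passed 1.2-fold upwards in the library labelled knock, with a median log2 ratio of 0.81, and all stayed higher under every scaling, 9 of them by at least 1.2-fold. Psmd1 had 213.5, 258.2 and 286.1 CPM in the lowest, median and highest column labelled knock, against 65.8, 97.3 and 152.7 CPM in those labelled control, a log2 ratio of 1.44 (1.31 to 1.57). Psmd2, the other large scaffold, had 72.4, 105.5 and 150.4 CPM in the columns labelled knock and 28.1, 38.1 and 64.5 CPM in those labelled control, a log2 ratio of 1.37 (1.18 to 1.57). The columns of both genes did not overlap between the libraries. Here and below, the share of all genes whose 3' columns were apart is not given, so this is no trait of the members. Psmd8 had the lowest ratio of the class, 0.29 (0.22 to 0.36). The class holds only genes that match the naming rule. Sem1, a small subunit of the cap outside that rule, was lower in the library labelled knock, at -0.68. The lid summed to 2242 CPM in the library labelled knock and 1405 CPM in the one labelled control, 1.596-fold higher (1.56 to 1.64), and all 8 columns labelled knock lay above the highest labelled control. Counts of the cap were 74.0% of those of the core in the library labelled knock (72.9 to 75) and 60.1% in the one labelled control (59.0 to 61.2). This ratio needs no scaling and was higher in every column labelled knock (68.9% to 77.8%) than in any labelled control (55.7% to 62.5%). By label this is opposite to the direction in CBTi-seq, and with the 3' labels exchanged it would be the same.

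The base ATPases were split in 3'. Psmc3 had 252.8, 355.3 and 406.0 CPM over the columns labelled knock and 155.0, 176.6 and 233.9 CPM over those labelled control, a log2 ratio of 1.02 (0.92 to 1.11). With TMM factors it was 0.87, under 2-fold. Psmc4 (0.81) and Psmc5 (0.67) were also higher. Psmc2 was lower, with 349.2, 371.7 and 434.1 CPM in the columns labelled knock against 500.8, 597.9 and 673.5 CPM in those labelled control, a log2 ratio of -0.69 (-0.75 to -0.62). The columns of Psmc2 and of Psmc3 did not overlap, in opposite directions. Psmc6 had -0.26, and Psmc1 had 0.11, which turned negative under all 3 scalings.

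The core differed less than the lid in 3'. It summed to 5152 CPM in the library labelled knock and 4631 CPM in the one labelled control, 1.11-fold higher (1.10 to 1.13), and its columns did not overlap, at 4963 to 5440 CPM in those labelled knock and 4401 to 4801 CPM in those labelled control. Its log2 ratio of 0.15 became 0.00075 with TMM factors and -0.00219 with median-of-ratios factors. The alpha ring summed to 2471 CPM in the library labelled knock and 2289 CPM in the one labelled control, a log2 ratio of 0.11, which turned to -0.04, -0.05 and -0.02 under the 3 scalings. Among its members Psma4 had 0.90 (0.67 to 1.13) and Psma1 -0.33 (-0.42 to -0.23), and Psma5 and Psma6 changed sign with the scaling. Psma7 had the highest level of the ring per kb, 675.8 CPM per kb in the library labelled knock and 574.4 CPM per kb in the one labelled control. Whether counts at the 3' end grow with transcript length was not tested. The constitutive beta ring summed to 2681 CPM in the library labelled knock and 2342 CPM in the one labelled control, 1.14-fold higher (1.12 to 1.17). Its columns did not overlap either, at 2492 to 2882 CPM in those labelled knock and 2232 to 2398 CPM in those labelled control, with Psmb4 (0.42) and Psmb6 (0.41) at least 1.2-fold higher and Psmb1 at -0.22. Psmb5 had 165.7, 198.4 and 316.2 CPM in the columns labelled knock and 121.3, 174.4 and 218.4 CPM in those labelled control, and Psmb6 had 585.6, 644.3 and 685.6 CPM in the columns labelled knock and 431.3, 479.9 and 600.9 CPM in those labelled control. Psmb7 had 72 counts in the library labelled knock and 50 in the one labelled control, 7.86 CPM and 7.07 CPM, with a log2 ratio of 0.15 (-0.39 to 0.70).

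Of the inducible beta subunits, Psmb9 alone had more than 2 counts in either 3' library. It had 33 counts in the library labelled knock and 52 in the one labelled control, 3.60 CPM and 7.36 CPM, a log2 ratio of -1.03 (-1.71 to -0.37). Set against Psmb6, its counts were 0.564% in the library labelled knock (0.388 to 0.792) and 1.53% in the one labelled control (1.14 to 2.01). By label, Psmb9 was thus lower relative to its partner in knock in both methods, at under 20 CPM in each. With the 3' labels exchanged, the methods would differ in direction. Psmb8 had 2 counts in the library labelled knock and 0 in the one labelled control, and Psmb10 and Psmb11, a beta subunit of the thymus, had none. A count of 0 allows up to 0.327 CPM in the library labelled knock and 0.424 CPM in the one labelled control (3 counts). Psma8 had 8 counts in the library labelled knock and 7 in the one labelled control.

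Psme3 had the highest 3' ratio of the members at 20 CPM or more. It stood at 52.0, 61.0 and 67.5 CPM in the columns labelled knock and 0, 10.1 and 16.1 CPM in those labelled control, or 548 counts in the library labelled knock and 69 in the one labelled control. The columns did not overlap, and the library labelled knock was 6.13-fold higher, with a log2 ratio of 2.61 (2.25 to 3.00). CBTi-seq read the same gene at 199.3 CPM in knock and 185.7 CPM in control. The other activators lay between -0.19 for Psmf1 and 0.40 for Psme2, and the sign of Psme2 turned to -0.51 after thinning. Psme4 was under 20 CPM in 3'.

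Among the assembly factors the 3' libraries ordered the genes otherwise than CBTi-seq. Psmg1 was the lowest of the 39 members, with 23.8, 36.5 and 40.1 CPM in the columns labelled knock and 24.6, 44.2 and 75.1 CPM in those labelled control, a log2 ratio of -0.70 (-0.92 to -0.48). Psmg2, its partner, was also lower, at 48.0 CPM in the library labelled knock and 63.1 CPM in the one labelled control (-0.39). Psmg4 had the highest level of any member per kb, 719.4 CPM per kb in the library labelled knock and 863.3 CPM per kb in the one labelled control, with a log2 ratio of -0.26. Psmd9 was higher, with 44.2, 59.5 and 73.0 CPM in the columns labelled knock, 16.6, 27.0 and 43.6 CPM in those labelled control and a log2 ratio of 0.97 (0.74 to 1.20). Psmd5 had 0.01 and turned negative under all 3 scalings. The class summed to 618.8 CPM in the library labelled knock and 704.8 CPM in the one labelled control, and no column labelled knock exceeded the highest labelled control. Psmc3ip had 147 counts in the library labelled knock and 2 in the one labelled control, 16.04 CPM and 0.283 CPM, a ratio of 56.7 (15.4 to 472.5). Its gene overlaps Mlx on the opposite strand.

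**Figure D3:**
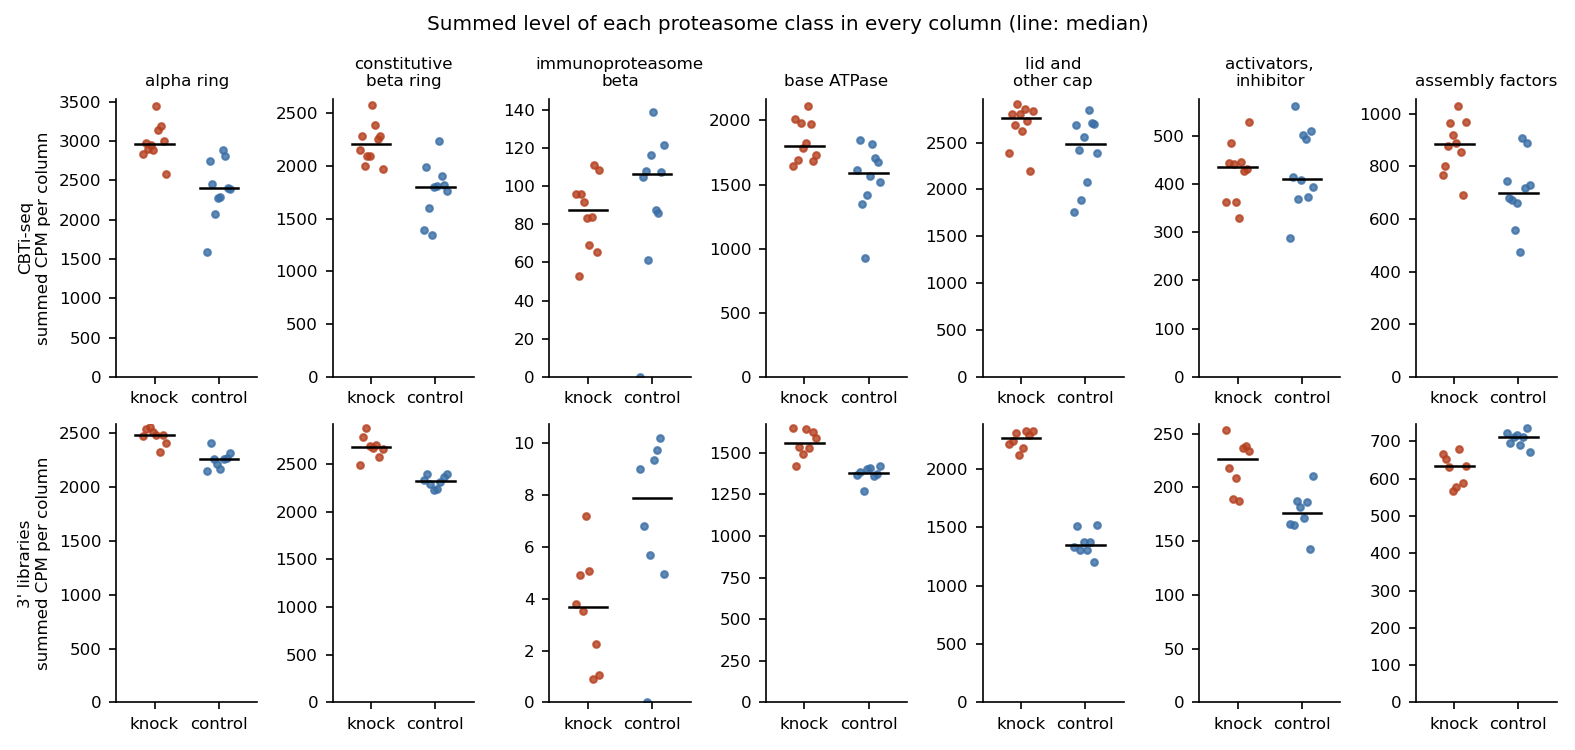
Summed CPM of each proteasome class in every column, for CBTi-seq (top, 10 knock and 10 control columns) and the 3' libraries by label (bottom, 8 and 8). Points are columns, lines are medians, and every axis starts at 0. The 3' lid columns labelled knock (2124 to 2328 CPM) lie above all columns labelled control (1208 to 1519 CPM), while in CBTi-seq the groups overlap in every class.

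Of the 39 members at 20 CPM or more in both methods, 27 were higher in the group called knock in each (69.2%, against 32.7% of the 4602 genes at that level in both). Another 9 were higher in CBTi-seq and lower in 3' (23.1%, against 17.3% of all genes), among them Psmg1, Psmg4, Psmc2, Psma1 and Psmb1. Both counts rest on the 3' labels, and with these exchanged they would trade places. Psme2 was lower in CBTi-seq and higher in 3', a 3' sign that turned after thinning. Psmg2 and Psmf1 were lower in both, but their CBTi-seq signs turned with the scaling. The size of the ratio in one method did not follow that in the other. Spearman's rho was -0.26 over the 39 members and 0.03 over the 4602 genes, as a description across genes.

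**Figure D4:**
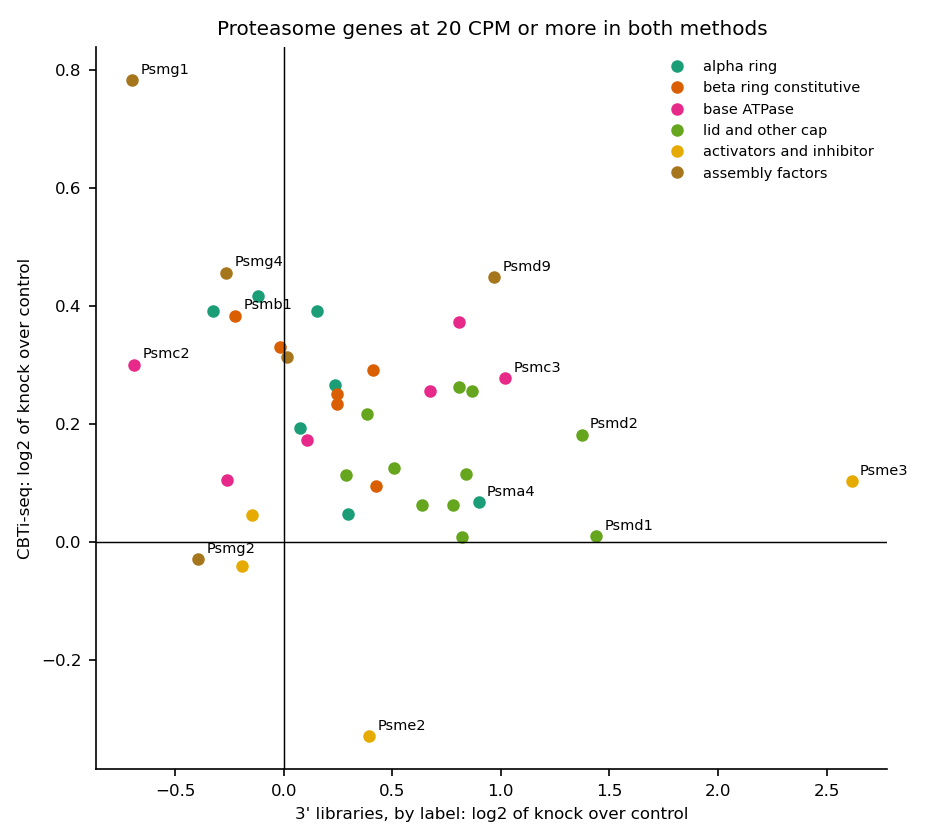
Log2 ratio of knock over control in CBTi-seq (vertical axis) against that in the 3' libraries by label (horizontal axis) for the 39 members at 20 CPM or more in both, coloured by class. Psmg1 lies highest at 0.78 in CBTi-seq and leftmost at -0.70 in 3', and Psme3 lies farthest right at 2.61 with 0.10 in CBTi-seq. The genes of the lid and the rest of the cap lie between 0.29 and 1.44 on the horizontal axis. The scaffolds Psmd1 and Psmd2 are the farthest right of these.

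The methods also differed in which proteasome genes they read at all. Levels over all columns ran together loosely, with a rho of 0.66 over the 39 members and 0.62 over all genes. Psmb10 had 316 counts in CBTi-seq (42.9 CPM) and none in 3', and Psmg3 had 494 counts (67.0 CPM) and none in 3'. Against 3 counts over all 16 columns of 3' (0.185 CPM), these levels were at least 232-fold and at least 363-fold higher in CBTi-seq. Psmb7 was at 215.5 CPM in CBTi-seq and 7.52 CPM in 3', Psmd10 at 62.2 CPM and 0.616 CPM, and Psma3 at 453.9 CPM and 41.3 CPM in the same order. Psmb7, a constitutive catalytic subunit, thus had 1588 counts in CBTi-seq and 122 in 3'. In the other direction, Psma7 was at 384.7 CPM in CBTi-seq and 957.0 CPM in 3', and Psmg4 at 162.4 CPM and 434.0 CPM. Neither the annotated 3' ends nor the counting rules behind these gaps were tested.

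**Figure D5:**
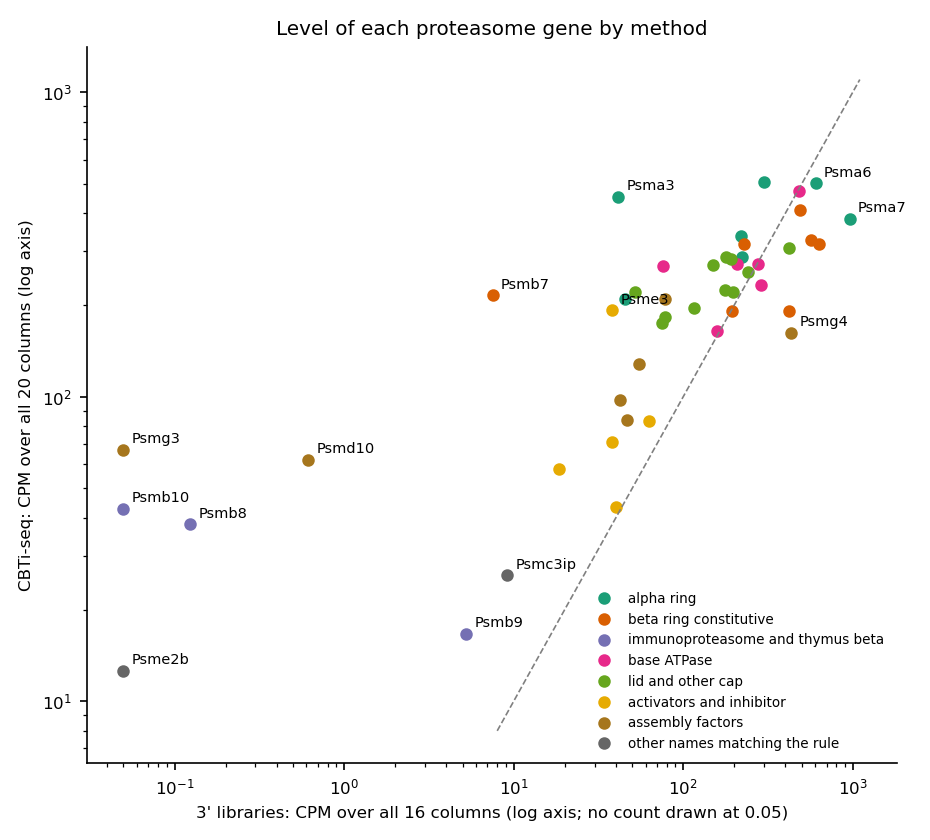
CPM of every member over all 20 CBTi-seq columns (vertical log axis) against CPM over all 16 columns of 3' (horizontal log axis), with the line of equal levels dashed. Members with no 3' count are drawn at 0.05 CPM. Psmb10 and Psmg3 sit at the left edge with 42.9 and 67.0 CPM in CBTi-seq, and Psmb7 lies left of the other constitutive beta genes at 7.52 CPM in 3'.

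Lists of other genes of the pathway had median log2 ratios of -0.12 to 0.05 in CBTi-seq, against 0.21 over the members and -0.05 over all genes, and the difference was not tested. Their counts below stand against 44.7% of all genes higher in CBTi-seq and 58.8% in 3'. Among proteasome parts outside the naming rule, 5 of 9 were higher in the knock group, with a median log2 ratio of 0.00. Usp14, a deubiquitinase bound to the cap, had 302.3, 498.9 and 738.5 CPM over knock columns and 96.2, 247.0 and 509.9 CPM over control columns, and at 0.82 (0.71 to 0.94) it exceeded every member. Adrm1, a ubiquitin receptor, had 0.32 and Pomp, the maturation factor of the core, 0.31, while Akirin2, which brings the proteasome into the nucleus, had -0.58 (-0.82 to -0.35). In 3', 6 of 8 were higher by label with a median of 0.61, led by Adrm1 (1.17) and Ube3c (1.11), and Sem1, a small subunit of the cap, was at -0.68.

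Ubiquitin and E1 genes had a median of 0.04 in CBTi-seq (4 of 6 higher), with Ubb at 0.36. In 3' the median was 0.29 (3 of 4 higher by label), with Uba1, the main E1 enzyme, at 0.66, and Rps27a, a fusion of ubiquitin and a ribosomal protein, at -1.05. VCP, the segregase that hands substrates to the proteasome, and its partners had a median of 0.05 in CBTi-seq (8 of 11 higher) and 0.32 in 3' (5 of 8 higher by label). Nsfl1c, a cofactor of VCP, was higher in both, with 0.45 in CBTi-seq and 1.07 in 3'.

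The genes around NFE2L1 had a median of 0.02 in CBTi-seq, with 4 of 8 higher in the knock group. Nfe2l1 itself was at 164.5 CPM in knock and 165.2 CPM in control. Ngly1, which removes sugars from NFE2L1, was at 37.1 CPM in knock and 50.8 CPM in control (-0.45, -0.78 to -0.13), whereas Syvn1 and Sel1l, which form its export ligase in the endoplasmic reticulum, had 0.44 and 0.37. In 3', 3 of 4 were higher by label, with a median of 0.42, and Sel1l was at -0.46. Antigen-processing genes, which use the peptides of the immunoproteasome, had a median of -0.12 in CBTi-seq (3 of 7 higher), and Tapbp was at 106.9 CPM in knock and 159.2 CPM in control (-0.57, -0.76 to -0.39). In 3' all 5 were higher by label, with a median of 0.58, among them Tap1 and H2-K1, each at 0.89.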

How the data were processed

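The deposited values are unnormalized counts, whole numbers for each gene in each column, in 1 CBTi-seq table whose name refers to UMIs and 2 tables of 3' counts. Per the submitters' processing notes, the tools were STAR 2.7.11b, Picard and FastQC, and the builds GRCm38 and GRCh38 appear with no role given. Which tool counted, whether it used strand and whether the 3' counts are reads or UMIs was not stated in the sources used here. Of the 55402 Ensembl IDs, 55141 matched the GENCODE vM21 annotation of GRCm38, and rows of 1 symbol were summed.

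Counts were summed per group and scaled to the group total. Levels have exact Poisson 95% intervals and ratios exact conditional (Clopper-Pearson) ones. Calls go by size alone, 1.2-fold and 2-fold, among genes at a mean of 20 CPM or more. With 1 sample per group no test was made. The naming rule of the members and the 5 pathway lists were chosen with earlier results of these data known. Full values are given for the 3 highest and 3 lowest ratios and the 3 highest levels per kb per method, the catalytic pairs and members over 2-fold apart, beside class examples. The CCAAT motif was added after the data were seen. Of the members, 10 overlap another gene on the same strand and 19 on the opposite strand, so that their counts may be shared.

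Alternatives were equal weights for columns, median-of-ratios factors (DESeq2 1.42.0), TMM factors (edgeR 4.0.16), totals that leave out ribosomal protein and mitochondrial genes, a limit of 50 CPM or none, thinning to 50000 counts (1 CBTi-seq control column left out), UMI collisions, and leaving out columns. The calculation was tested on simulated counts. Other tools were Python 3.11.15 with scipy 1.17.1, pandas 2.3.3, numpy 2.4.6 and matplotlib 3.10.9, and R 4.3.3.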

Additional observations from a re-analysis of the deposited data

How the results depend on the processing

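In CBTi-seq the summed classes kept their direction under every alternative except that of the activators, whose log2 ratio of -0.04 ran at -0.12 to 0.01 over the settings that leave out 1 column. The sum of the activators also turned positive with TMM and with median-of-ratios factors. With equal weights for columns, the log2 ratio was 0.25 for all members, 0.32 for the core, 0.32 for the alpha ring and 0.32 for the beta ring. With TMM factors it was 0.29 for all members, 0.34 for the core, 0.25 for the cap, 0.33 for the alpha ring, 0.34 for the beta ring, 0.33 for the base, 0.20 for the lid and 0.40 for assembly factors, and 1 member was at least 1.2-fold lower. With median-of-ratios factors it was 0.26 for all members, 0.31 for the core, 0.23 for the cap, 0.31 for the alpha ring, 0.32 for the beta ring, 0.31 for the base and 0.18 for the lid. After thinning it was 0.31 for the core, 0.13 for the cap, 0.31 for the alpha ring, -0.59 for the inducible beta subunits, 0.035 for the lid, -0.25 for the activators and 0.40 for assembly factors. Without a level limit, 5 of 48 members were at least 1.2-fold lower. Leaving out 1 column at a time gave 0.18 to 0.24 for the members' median, 38 to 42 members higher, 12 to 21 at least 1.2-fold higher and 1 to 3 at least 1.2-fold lower. Of the 20 calls at 1.2-fold, 11 held over all these columns. The ranges of the log2 ratio were 0.19 to 0.24 for all members, 0.24 to 0.30 for the core, 0.14 to 0.21 for the cap, 0.24 to 0.30 for the alpha ring, 0.24 to 0.30 for the beta ring, -0.27 to -0.15 for the inducible beta subunits, 0.21 to 0.29 for the base, 0.10 to 0.16 for the lid, 0.29 to 0.41 for assembly factors and 0.19 to 0.56 for Psmc3ip with Psme2b. The members' median minus that of all genes was 0.23 to 0.29.

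In 3' the members' median was 0.14 with TMM factors, 0.14 with median-of-ratios factors and 0.16 with totals that leave out ribosomal protein and mitochondrial genes, and 10 members were at least 1.2-fold lower under each. Such members numbered 8 after thinning and 8 without a level limit. With equal weights the log2 ratio was 0.26 for all members and 0.72 for the lid. With TMM factors it was 0.0895 for all members, 0.00075 for the core, 0.30 for the cap, -0.042 for the alpha ring, 0.042 for the beta ring, 0.034 for the base, 0.52 for the lid, 0.18 for the activators and -0.34 for assembly factors. With median-of-ratios factors these were 0.087, -0.00219, 0.30, -0.045, 0.039, 0.031, 0.52, 0.17 and -0.34 in the same order. With these genes out of the totals they were 0.11, 0.022, 0.32, -0.021, 0.063, 0.055, 0.54, 0.20 and -0.32. After thinning they were 0.22 for the core, 0.43 for the cap, 0.22 for the alpha ring, 0.23 for the beta ring, 0.059 for the base, 0.73 for the lid, -0.20 for the activators and -0.30 for assembly factors, and Psme2 was at -0.51. The activators and Psme2 thus turned round, and the cause was not tested. Leaving out 1 column gave 0.26 to 0.40 for the members' median, 0.08 to 0.22 for its distance from all genes, 27 to 29 members higher, 19 to 23 at least 1.2-fold higher and 4 to 7 at least 1.2-fold lower, and 23 of 26 calls at 1.2-fold held. The log2 ratio ran at 0.24 to 0.27 for all members, 0.14 to 0.18 for the core, 0.44 to 0.49 for the cap, 0.10 to 0.15 for the alpha ring, 0.18 to 0.21 for the beta ring, -1.16 to -0.80 for the inducible beta subunits, 0.17 to 0.20 for the base, 0.65 to 0.74 for the lid, 0.30 to 0.38 for the activators, -0.21 to -0.16 for assembly factors and 5.63 to 6.71 for Psmc3ip. No paired analysis was possible because the samples share no replicate and no test was made. At these depths, inducible beta subunits under 20 CPM have wide intervals, and those under 3 counts in 3' carry no ratio.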

Other observations

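The level of the whole group varied more between CBTi-seq control columns than between knock columns. The coefficient of variation of the summed members over columns was 5.33% in knock and 13.9% in control, where counting error alone gives 1.77% in knock and 2.43% in control. In 3' it was 1.48% in the library labelled knock and 2.77% in the one labelled control, where counting error alone gives 0.973% in the library labelled knock and 1.35% in the one labelled control. Across the 10 columns of a CBTi-seq group, the summed core and the summed cap had a Spearman's rho of 0.25 in knock and 0.93 in control. Across the 8 columns of a 3' library it was -0.62 in the one labelled knock and 0.38 in the one labelled control. Columns of a group share a library and differ in depth, and these values are a description.

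Among pseudogenes left out by the rule, Psmb6-ps2 had 37 counts in the 3' library labelled knock and 4 in the one labelled control, while Psmb6 had 5856 counts in the library labelled knock and 3401 in the one labelled control. In CBTi-seq it had 9 counts in knock and 6 in control. Irf1, an interferon response gene of the antigen-processing list that lay under 20 CPM in CBTi-seq, was at 7.70 CPM in knock and 17.9 CPM in control. Of the 10 genes of that list, 7 reached 20 CPM in CBTi-seq. The others under that level, and the interval of Irf1, are not given here.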
